A study of Mus musculus with 45 samples.

Results

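Cell lines grown from tumours of the mammary fat pad were compared by the parental tumour line from which they descend. The cell line label chose the members: YEJG-FP, 1 line with 3 libraries, and YEJH-FP1 to YEJH-FP5, 5 lines with 15 libraries, which together are 18 of the 45 libraries and 6 of the 15 lines of the series. Every line is a PyMT+ mouse mammary cancer line, that is, it carries the polyomavirus middle T antigen, which the MMTV promoter drives in mammary epithelium. The lines were plated on dishes and lysed the next day with no treatment named in the labels, and polyA RNA was sequenced in 3 technical repeats a line. The study used these lines to compare Upp1, a uridine-splitting enzyme, between fat-pad tumours and lung metastases. The other lines are used only side by side with the fat-pad lines: 2 lung lines of YEJG (YEJG-M1 and YEJG-M2), 5 lung lines of YEJH (YEJH-M1 to YEJH-M5) and both parental lines, YEJG and YEJH. By the study's methods its mammary cancer mice were female and of an FVB/N background. The age of the mice that carried these tumours, and whether a line is a clone or a pool, were not found in the sources used here. With YEJG-FP as the only fat-pad line of its origin, a difference between origins and a difference of this 1 line cannot be told apart among the fat-pad lines.

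The 18 libraries held 12313183 to 16943900 reads counted on genes. They came in 2 library runs, named A and B here, and each line had 1 or 2 of its 3 libraries in run A. YEJH-FP1 repeat 1 stood apart: within run A it differed from the other run A repeat of its own line by a chi-square of 30.7 per degree of freedom over genes, beside 4.87 and 2.89 for the 2 other such pairs. It also had the largest share of the 18 in rows that name no gene, at 36%. Counts of called genes are therefore also given without it. Libraries of different YEJH lines in 1 run had a median chi-square of 7.24 per degree of freedom (run A) or 5.48 (run B), while pairs of YEJG-FP with a YEJH line had 32.0 or 31.1. Repeats of 1 line differed by a median of 4.87 and 3.54 in the same runs.

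All 16 defining markers of mammary epithelial tumour cells were expressed well enough to be tested, with a summed level of 95110 to 105400 normalised counts in YEJG-FP and 113600 to 165400 in the YEJH lines. The normalised count is the read count scaled by TMM, a method that sets a common scale for libraries of unequal depth and makeup. Markers of leukocytes summed to 35.6 to 49.5 normalised counts in YEJG-FP and 58.6 to 109.7 in YEJH libraries, those of endothelium to at most 9.90 in any library, and those of adipocytes to at most 7.97. Fibroblast markers summed to 153.7 to 189.2 in YEJG-FP and 47.6 to 89.4 in YEJH libraries, and 3 of their 5 tested members were higher in YEJG-FP. The 1 tested marker of skeletal muscle was lower in YEJG-FP, where that list summed to 16.1 to 25.6 beside 103.8 to 285.6 in YEJH libraries, and so was the 1 tested marker of lung epithelium (142.9 to 149.7 beside 209.4 to 556.1). The part of these markers in the results below was not tested.

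Carcinoma cells keep an epithelial form through cadherin and claudin junctions and a keratin skeleton, and they can lose parts of it as mesenchymal genes are switched on. Tumours of the PyMT model arise from luminal mammary epithelium and spread to the lung. Lines drawn from separate tumours can differ in selection, chromosome content and gene silencing even where the driving oncogene is shared. Which of these apply to YEJG and YEJH was not tested.

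Of 16085 genes tested, 5562 (34.6%) had an adjusted p under 0.05 between YEJG-FP and the 5 YEJH fat-pad lines, with 2850 (17.7%) higher and 2712 (16.9%) lower in YEJG-FP. The adjusted p comes from edgeR's quasi-likelihood test on counts summed per line, with the library run removed gene by gene, and a gene is said to be called, to rise or to fall only where it passed. Changes of more than 2-fold were found in 1028 called genes (6.39% of those tested). Of the 10609 genes placed on a chromosome with at least 50 normalised counts in either group, 2501 were higher and 2243 lower. That is a larger share than over all genes, so a list of well expressed genes is called more often for that reason too. The 3 YEJG-FP libraries lay outside the range of all 15 YEJH libraries for 3590 genes (22.3%), and the median log2 difference over all genes was 0.025. Without YEJH-FP1 repeat 1, 5341 genes were called. An exact permutation test of 1 line against 5 has 6 splits and cannot give a p under 0.167. The calls therefore rest on the model across genes, in which YEJG-FP is assumed to vary as the YEJH lines do. The common coefficient of variation of the fat-pad fit was 0.047, beside 0.164 in the lung fit. In a second method, limma, libraries of 1 line correlated by -0.015 in fat pad and 0.292 in lung. The YEJH fat-pad lines thus differed little more than repeats, and the SE and adjusted p rest on that narrow spread. With the spread taken instead from all 13 derived lines, a choice made after the data were seen, 2720 genes were called. That choice is called the wider spread below, and the number of members of each list called with it is given beside the list. Named genes whose call it removed are only in part marked where they appear, and all are listed in the last section. Libraries of run A gave 3340 calls when fitted alone, those of run B 3795.

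Among the 12 lowest differences, Car2 and Cldn7 fell furthest. Car2, a cytosolic carbonic anhydrase, read 50.6, 40.3 and 27.9 normalised counts in the 3 YEJG-FP libraries and 719 to 1469 (median 1174) in the 15 YEJH libraries (log2 difference -4.81, SE 0.31, adjusted p = 2e-06). Cldn7, a claudin of epithelial tight junctions, stood at 61.7, 59.4 and 55.7 against 1227 to 1989 (median 1661) (log2 difference -4.76, SE 0.24, adjusted p = 4.5e-07). In both genes the highest YEJG-FP library was below the lowest YEJH library by more than 10-fold. Klk6, a secreted serine protease, read 519.8, 436 and 375 against 4174 to 8254 (median 6587) (log2 difference -3.82, SE 0.25, adjusted p = 2.1e-06). Lgr6, a receptor for R-spondins found on epithelial stem cells, read 202, 151 and 153 against 1607 to 2062 (median 1734), with the smallest adjusted p of the 12 genes with the lowest differences (log2 difference -3.38, SE 0.10, adjusted p = 3.2e-08). Ngfr, the low-affinity neurotrophin receptor, read 59.7, 54.3 and 44.6 against 453 to 805 (median 535) (log2 difference -3.39, SE 0.26, adjusted p = 6e-06), a call lost with the spread of all 13 derived lines. The alarm cytokine Il1a stood at 112, 121 and 101 against 673 to 1180.1 (median 888) (log2 difference -3.00, SE 0.27, adjusted p = 1.9e-05). No YEJG-FP library reached the YEJH range in any of these 6 genes, since that separation was part of the rule that chose them.

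The other 6 of the 12 lowest differences ran from -3.52 to -2.62 on the log2 scale. Gcnt1, which branches O-linked sugar chains, fell by a log2 difference of -3.52 (SE 0.23) to 21.1 normalised counts from a YEJH mean of 250.4 ± 32.8 (SD, n = 5 lines). Dapk1, a kinase of cell death pathways, fell to 31.2 from 314 ± 34.8 (log2 difference -3.32), and the ubiquitin ligase gene Rnf130 to 46.0 from 304 ± 24.1 (-2.70). Megf6 fell to 57.6 from 462 ± 74.7 (-2.98), a call lost with the wider spread. Ulbp1, a ligand of the natural killer receptor NKG2D, fell to 83.7 from 558 ± 34.7 (-2.69). Prl2c3 codes for a proliferin and has near-identical copies. Reads that align to several places were counted on no gene, and its value of 1448 against 8299 ± 2139.9 is uncertain for that reason.

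Among the genes that rose, Qng1 had the largest difference of the 12 highest. Qng1, an enzyme that salvages the tRNA nucleoside queuosine, read 273, 269 and 271 normalised counts in YEJG-FP and 2.45 to 13.9 (median 5.69) in the YEJH libraries (log2 difference 5.39, SE 0.19, adjusted p = 4.8e-08). Ccl2, the chemokine that draws monocytes, read 318, 327 and 251 against 10.3 to 54.1 (median 19.3) (log2 difference 3.68, SE 0.28, adjusted p = 5.1e-06). Angpt1, a ligand of the endothelial receptor Tie2, stood at 252, 216 and 209 against 9.29 to 34.4 (median 25.3) (log2 difference 3.38, SE 0.14, adjusted p = 1.2e-07). The YEJG-FP libraries of all 3 genes lay above every YEJH library, as the rule that chose the 12 required. Sparc, a matrix-binding glycoprotein, read 1492, 1356 and 1456 against 139.7 to 375 (median 248) (log2 difference 2.55, SE 0.22, adjusted p = 1.3e-05), and Col6a1, a chain of type VI collagen, 301, 249 and 243 against 27.8 to 86.2 (median 54.9) (log2 difference 2.30, SE 0.15, adjusted p = 2.2e-06). The water channel gene Aqp1 read 635, 661 and 689.6 against 72.0 to 257 (median 107) (log2 difference 2.37, SE 0.23, adjusted p = 2.8e-05). Acan, the cartilage proteoglycan aggrecan, was the most variable of the 12 among the YEJH lines, whose means ran from 30.2 to 283 normalised counts beside 895 in YEJG-FP (log2 difference 2.85, SE 0.54), and its call was lost with the wider spread.

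The remaining 5 of the 12 highest were Cers6, Dlk2, Tgm1, Fat4 and Kalrn. Cers6, a ceramide synthase, rose to 336 normalised counts from 50.7 ± 11.8 (SD, n = 5 lines), a call lost with the wider spread. Dlk2, a Notch antagonist, rose to 340.1 from 53.7 ± 12.5. Tgm1, the transglutaminase of cornified epithelium, rose to 398 from 66.1 ± 10.2. Fat4, an atypical cadherin, rose to 358 from 76.9 ± 14.8 and Kalrn to 326 from 69.9 ± 17.9. Their log2 differences lay between 2.23 and 2.74.

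**Figure D1:**
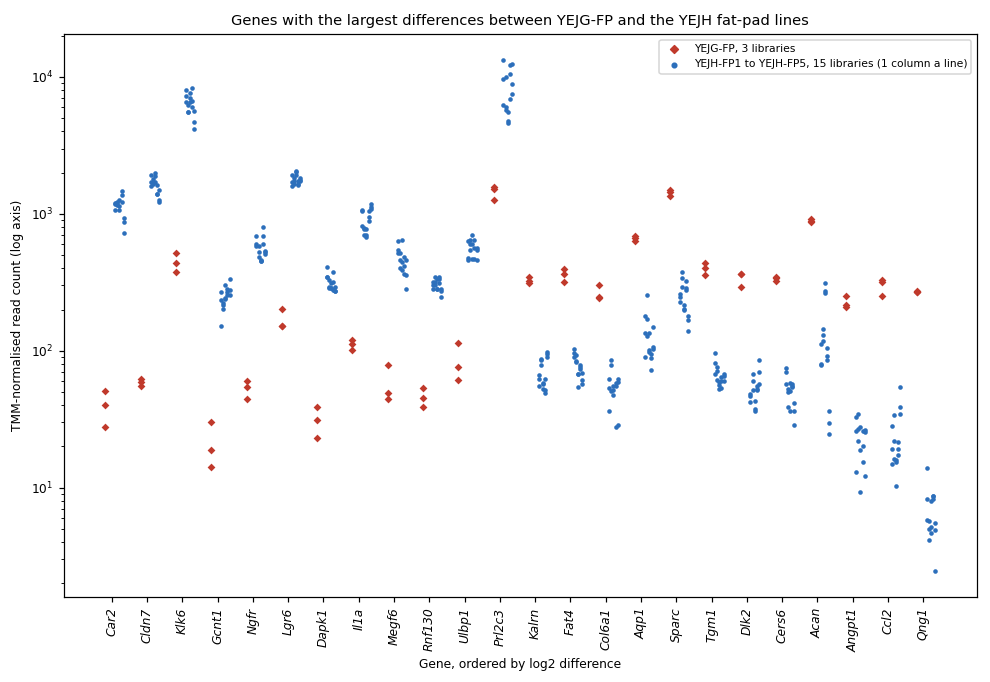
Normalised read counts (y axis, log scale) of the 24 genes chosen as the 12 lowest and 12 highest differences (x axis); red diamonds are the 3 YEJG-FP libraries and blue points the 15 YEJH libraries, 1 column a line. By the rule that chose the genes no red diamond falls inside the blue range, and Acan shows the widest scatter among YEJH lines, from 30.2 to 283 as line means.

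A small set of genes was all but silent on 1 side. Of protein-coding genes, 13 had at most 3 reads summed over the 3 YEJG-FP libraries and at least 30 in every YEJH line, and 4 had at most 3 reads in every YEJH line and at least 30 in YEJG-FP. Kctd12b on the X chromosome had 3 reads in YEJG-FP and 239 to 285 in each YEJH line, a ratio of 81.3 (95% exact interval 27.8 to 395, counting error only). The parental lines were split alike, with 4 reads in YEJG and 327 in YEJH, and Fam83f was too, with 1 read in YEJG-FP, 56 to 188 in YEJH fat-pad lines, 2 in YEJG and 152 in YEJH. Wipf1, which codes for a partner of the actin regulator WASP, had 2 reads in YEJG-FP and 109 to 208 in YEJH fat-pad lines, yet 245 in parental YEJG and 208 and 171 in the YEJG lung lines. B4galt6, a glycolipid synthase gene, had 1 read in YEJG-FP and 68 to 120 in YEJH fat-pad lines, 0 and 1 in parental YEJG and YEJH, and 154 and 83 in the YEJG lung lines. Parp11 followed Wipf1, with 3 reads in YEJG-FP, 47 in parental YEJG and 88 and 125 in its lung lines.

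On the other side, Tgif2, a repressor of TGF-beta target genes, had 347 reads in YEJG-FP and 0 or 1 in each YEJH fat-pad line, 62 in parental YEJG, and 0 in parental YEJH. The YEJG lung lines held 3 and 0 reads of it. Sp8, a zinc finger regulator of limb and brain development, had 87 reads in YEJG-FP and 0 in all YEJH fat-pad lines. It was at least 154-fold higher, with a floor of 3 reads over the 5 YEJH lines. Rspo3, a Wnt agonist, had 31 reads in YEJG-FP, 0 to 2 in each YEJH fat-pad line, and 110 and 446 in the YEJG lung lines. The sodium channel gene Scn3a had 34 reads in YEJG-FP, 6 in YEJG-M1 and 32 in YEJG-M2.

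Epithelial identity genes were lower in YEJG-FP or did not pass. Of the 16 listed and tested, 11 fell, beside 16.9% of all genes, and 0 rose, with a median log2 difference of -0.59. The wider spread gave 7 calls. In bulk RNA, fewer cells that express a gene and less of its RNA per cell cannot be told apart. Krt19, a simple-epithelial keratin, read 1048, 1022 and 1251 normalised counts against 2195 to 2924 (median 2574) (log2 difference -1.24, SE 0.066, adjusted p = 6.4e-07). Epcam, the epithelial adhesion molecule, read 5033, 4865 and 4679 against 8512 to 9438 (median 8760) (log2 difference -0.86, SE 0.046, adjusted p = 6.9e-07), and Cdh1, which codes for E-cadherin, 3677, 3439 and 3772 against 5147 to 6259 (median 5474) (log2 difference -0.60, SE 0.067, adjusted p = 6.6e-05). The groups did not overlap in any of these 3 genes, which were chosen by adjusted p, beside 22.3% of all genes. With the wider spread the call of Cdh1 was lost. Krt7 (log2 difference -0.21, SE 0.083, adjusted p = 0.078) and Grhl2, a factor that maintains epithelial junctions (log2 difference -0.044, SE 0.07, adjusted p = 0.673), did not pass, though Krt7 passed in DESeq2 (adjusted p = 0.019), limma (0.020), with no filter (0.037) and without YEJH-FP5 (0.00065).

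Cldn7 had the lowest difference of this list, and its promoter window from RefSeq is shown for that reason. The windows run from 250 bases before to 50 bases after a listed start on GRCm38.p6. The downstream of 2 windows listed for Cldn7 (chr11:69965171-69965470, plus strand) holds 2 matches to CACCTG or CAGGTG, the E-box letters bound by factors of the Snail and Zeb families, and the capitals mark them. The upstream window holds none.
Cldn7: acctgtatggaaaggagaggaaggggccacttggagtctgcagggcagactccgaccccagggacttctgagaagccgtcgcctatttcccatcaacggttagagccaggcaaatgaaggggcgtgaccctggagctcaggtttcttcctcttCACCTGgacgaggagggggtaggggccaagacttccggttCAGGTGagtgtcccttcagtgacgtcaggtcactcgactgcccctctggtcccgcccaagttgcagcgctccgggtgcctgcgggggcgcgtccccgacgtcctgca
Of 27025 genes with a window, 22.6% hold these letters on either strand in at least 1 window, and 8 of the 10 list members with a window do (80.0%), among them Epcam, Krt7, Krt8 and Krt18. A match is a description of letters, not a binding site.

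Junction and desmosome genes showed the same direction, with 14 of 22 lower and 2 higher (median log2 difference -0.30). In all 72.7% were called, beside 34.6% of all genes, and the wider spread gave 6 calls. Nectin3, an adhesion molecule of adherens junctions, read 185, 175 and 163 against 749 to 1068 (median 958) (log2 difference -2.39, SE 0.075, adjusted p = 3.2e-08). Ocln, the tight junction protein occludin, read 325, 314 and 329 against 598 to 819 (median 722) (log2 difference -1.13, SE 0.12, adjusted p = 4.3e-05). Plaque proteins moved less: Pkp3 (plakophilin 3) differed by -0.76 (SE 0.047), Jup (plakoglobin) by -0.59 (SE 0.063), and Pkp1 by -0.077 (SE 0.043, adjusted p = 0.196), which did not pass.

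Of 15 mesenchymal transition genes, 9 rose and 3 fell (median log2 difference 0.27, beside 17.7% of all genes rising). The wider spread gave 4 calls, all of them higher. Between the parental lines, 1 against 1 and with no test, the median of the list was -0.68. Zeb2, a repressor of epithelial genes, read 215, 191 and 207 against 68.1 to 141 (median 121) (log2 difference 0.83, SE 0.10, adjusted p = 0.00016). Sparc, described above, is also on this list. S100a4, a calcium-binding protein of motile cells, was called at a log2 difference of 0.50 (SE 0.05), but its libraries overlapped before the run was removed, at 3435, 5516 and 5747 in YEJG-FP and 2308 to 4268 (median 3066) in YEJH, and the call was lost in run B alone (adjusted p = 0.093). Prrx1, a mesenchymal homeobox gene, went the other way, from 53.6 to 92.4 (median 65.7) in YEJH libraries to 7.08, 2.01 and 1.11 in YEJG-FP (log2 difference -4.31, SE 0.31, adjusted p = 4.3e-06), a call lost with the wider spread.

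Among luminal lineage and milk genes 3 of 13 rose and 6 fell (69.2% called, beside 34.6% of all genes), and the wider spread gave 1 call. Xbp1, a factor of the secretory and unfolded protein response, fell by a log2 difference of -0.44 (SE 0.054), and Gata3, the luminal lineage factor, read 261, 209 and 261 against 219 to 316 (median 278) and did not pass (adjusted p = 0.133). Of 9 basal and myoepithelial genes 1 rose and 2 fell (33.3% called, near the 34.6% of all genes, and 0 with the wider spread). The Notch ligand gene Jag2 read 400.5, 421 and 399 against 762 to 1093 (median 913) (log2 difference -1.14, SE 0.12, adjusted p = 5.3e-05), and Sox9, a factor of progenitor cells, differed by -0.39 (SE 0.074). Krt14, the basal keratin, read 6716, 6411 and 7857 against 5059 to 7218 (median 5693), with overlapping libraries and an adjusted p of 0.126, and passed in limma (adjusted p = 0.035) and without YEJH-FP5 (0.013).

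**Figure D2:**
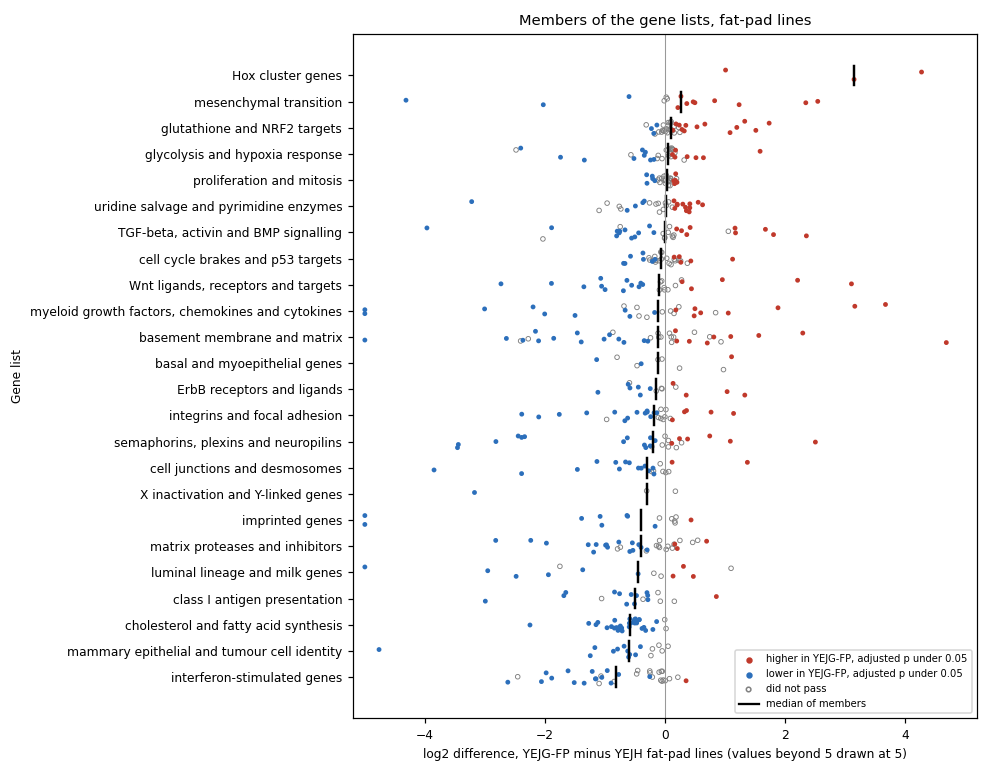
Log2 difference (x axis, YEJG-FP minus the YEJH fat-pad lines) of every tested member of 24 gene lists (y axis, ordered by median); red points rose, blue points fell, open points did not pass, and black bars are medians. Cholesterol and fatty acid synthesis lies almost wholly to the left, with 30 of 32 members lower, while mesenchymal transition has 9 of 15 higher.

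Matrix genes changed in both directions, 9 of 37 higher and 14 lower (62.2% called beside 34.6% of all genes, 15 genes with the wider spread). The main network collagens of basement membrane fell together. Col4a1 read 1499.7, 1165 and 1274 normalised counts against 6310.2 to 7923 (median 6688) (log2 difference -2.37, SE 0.079, adjusted p = 3.2e-08). Col4a2, whose chain assembles with that of Col4a1, read 1256, 1051 and 1105 against 4537 to 6379 (median 5169) (log2 difference -2.16, SE 0.064, adjusted p = 3.2e-08). Col18a1, the source of endostatin, stood at 2208, 2064 and 1898 against 6230.2 to 8815 (median 7484) (log2 difference -1.85, SE 0.081, adjusted p = 2.3e-07), and Tnc, the wound and tumour matrix protein tenascin C, at 9006, 8238 and 7784 against 32289 to 41299 (median 36836) (log2 difference -2.10, SE 0.07, adjusted p = 3.2e-08). In all 4 genes, chosen by adjusted p, every YEJG-FP library lay below the YEJH range, while 22.3% of all genes lay outside it. Thbs1, a matricellular protein, read 59207, 54985 and 50580 against 45635 to 58211 (median 52303) and did not pass (adjusted p = 0.234).

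Col4a1 and Col4a2 lie head to head and are transcribed away from each other, so their promoter windows, which are shown because the pair fell by similar amounts, share 78 bases (chr8:11312777-11312854, GRCm38.p6, RefSeq). Capitals mark the shared stretch, which is the same DNA read from opposite strands. The Col4a1 window is chr8:11312777-11313076 on the minus strand and that of Col4a2 is chr8:11312555-11312854 on the plus strand.
Col4a1: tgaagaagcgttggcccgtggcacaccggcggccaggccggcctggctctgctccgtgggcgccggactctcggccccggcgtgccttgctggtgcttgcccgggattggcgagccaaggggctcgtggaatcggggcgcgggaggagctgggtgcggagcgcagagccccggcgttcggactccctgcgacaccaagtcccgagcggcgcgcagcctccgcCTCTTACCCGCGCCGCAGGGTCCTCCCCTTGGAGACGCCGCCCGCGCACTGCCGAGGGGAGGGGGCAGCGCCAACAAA
Col4a2: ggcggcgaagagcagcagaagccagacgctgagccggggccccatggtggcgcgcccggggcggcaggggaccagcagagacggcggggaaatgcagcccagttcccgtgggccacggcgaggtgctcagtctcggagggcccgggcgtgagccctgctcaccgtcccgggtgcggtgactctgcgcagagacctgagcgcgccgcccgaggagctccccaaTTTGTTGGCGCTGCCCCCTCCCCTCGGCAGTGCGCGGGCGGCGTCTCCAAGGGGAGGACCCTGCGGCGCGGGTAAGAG
In the lung lines the same 2 genes differed less between origins, by -0.56 (adjusted p = 0.065) and -0.66 (adjusted p = 0.022). The fat-pad minus lung difference passed for both (adjusted p = 0.0013 and 0.0016), with YEJG-FP as the only YEJG fat-pad line.

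Of 27 adhesion receptors and their partners 14 were lower and 5 higher (70.4% called, 11 genes with the wider spread), beside 16.9% and 17.7% of all genes. Itga2, the collagen-binding alpha 2 integrin, read 417, 355 and 399 against 1660.1 to 2270.5 (median 2125) (log2 difference -2.38, SE 0.093, adjusted p = 8.1e-08), and Itga6, the laminin-binding alpha 6 integrin, 7314, 6897 and 6807 against 10422 to 12165 (median 11311) (log2 difference -0.67, SE 0.045, adjusted p = 2.5e-06). Tns4, a member of the tensin family, read 702, 635 and 506 against 2241 to 3386 (median 2694) (log2 difference -2.10, SE 0.072, adjusted p = 3.2e-08). Tln2, the second talin, rose to 786, 855 and 778 from 332 to 401 (median 365) (log2 difference 1.15, SE 0.059, adjusted p = 5.6e-07). Flna, an abundant actin cross-linker, differed by -0.068 (SE 0.042, adjusted p = 0.248).

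Of 33 matrix proteases and inhibitors, 16 fell and 3 rose (median log2 difference -0.40), beside 16.9% and 17.7% of all genes, and the wider spread gave 12 calls. The kallikrein Klk8 read 1909, 1512 and 1534 against 5713 to 9124 (median 7975) (log2 difference -2.23, SE 0.11, adjusted p = 4e-07), and Klk10 3026, 2740.2 and 2896 against 4876 to 6453 (median 5839.6) (log2 difference -0.99, SE 0.052, adjusted p = 6.3e-07); with Klk6 these are 3 members of 1 gene family, whose shared reads would not have been counted. Plat, the tissue plasminogen activator, fell to 130.5, 139.9 and 110.3 from 426 to 643 (median 508) (log2 difference -1.97, SE 0.11, adjusted p = 1e-06), and Adam12, a sheddase of growth factors, by a log2 difference of -0.95 (SE 0.06).

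Class I antigen presentation was lower in YEJG-FP, with 12 of 18 members down and 1 up (median log2 difference -0.49). In all 72.2% were called, beside 34.6% of all genes, while run B alone called 8 members and the wider spread 8. B2m, the invariant light chain, read 2483, 2514 and 2452 against 3517 to 4181 (median 3893) (log2 difference -0.64, SE 0.049, adjusted p = 5.8e-06). H2-D1 stood at 7203, 6322 and 6508 against 8892 to 10870 (median 9579.6) (log2 difference -0.51, SE 0.049, adjusted p = 2.9e-05) and H2-Q4 at 395, 269 and 268 against 389 to 668 (median 490.0) (log2 difference -0.56, SE 0.082, adjusted p = 0.00043); class I heavy chain genes are near-identical in parts, where reads would not have been counted. Psmb10, a catalytic subunit of the immunoproteasome, was the member that rose, to 400.5, 416 and 444 from 193 to 262 (median 227) (log2 difference 0.86, SE 0.07, adjusted p = 8.9e-06). The chaperone gene Calr read 11807, 11656 and 12339 against 11598 to 14881 (median 13143) and did not pass, but did so without YEJG-FP repeat 3 (adjusted p = 0.048). Psmb8, another immunoproteasome subunit, and Nlrc5, the activator of class I genes, were chosen after their values were seen. They fell by log2 differences of -1.65 and -2.99 here and rose by 2.86 and 1.45 in the lung lines. The fat-pad minus lung difference passed for both (adjusted p = 0.00057 and 0.0065), with YEJG-FP as the only YEJG fat-pad line.

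Of 34 interferon-stimulated genes 15 fell and 1 rose, with the lowest median of the 24 lists, -0.81. In all 47.1% were called, beside 34.6% of all genes, and the wider spread gave 12 calls. Ifih1, which codes for the double-stranded RNA sensor MDA5, read 100.1, 96.6 and 88.0 against 132 to 253 (median 231) (log2 difference -1.21, SE 0.13, adjusted p = 5.9e-05). Usp18, which removes ISG15 from proteins, read 8.09, 8.05 and 15.6 against 43.4 to 86.7 (median 63.7) (log2 difference -2.62, SE 0.28, adjusted p = 5.8e-05), Oasl1 83.9, 82.5 and 55.7 against 141 to 241 (median 195) (log2 difference -1.34, SE 0.15, adjusted p = 6e-05), and the virion tether gene Bst2 38.4, 28.2 and 37.9 against 99.7 to 203 (median 145) (log2 difference -2.06, SE 0.24, adjusted p = 9.2e-05). The YEJG-FP libraries of all 4 genes, chosen by adjusted p, lay below the YEJH range, while 22.3% of all genes lay outside it. Irf1, a factor upstream of many of these genes, read 687, 696 and 756 against 627 to 838 (median 750.1) and did not pass (adjusted p = 0.586).

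The promoter window of Ifih1 is shown as the called list member with the smallest adjusted p whose window holds, on either strand, GAAA followed after any 2 bases by GAAA, the letters of the interferon-stimulated response element. It is chr2:62646206-62646505 on the minus strand of GRCm38.p6 (RefSeq), with the match in capitals.
Ifih1: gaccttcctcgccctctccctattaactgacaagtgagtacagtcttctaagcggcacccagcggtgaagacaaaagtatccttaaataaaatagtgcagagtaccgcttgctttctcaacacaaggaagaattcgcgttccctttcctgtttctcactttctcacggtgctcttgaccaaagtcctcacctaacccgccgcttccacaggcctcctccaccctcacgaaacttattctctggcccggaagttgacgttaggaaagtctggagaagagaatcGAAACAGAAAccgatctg
The letters occur in 3.99% of all genes with a window and in 14 of the 24 list members with one (58.3%).

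Among growth factors, chemokines and cytokines, 8 of 26 rose and 9 fell (65.4% called beside 34.6% of all genes, 7 genes with the wider spread). Csf3, the granulocyte colony-stimulating factor, read 223, 200.3 and 201 against 479.9 to 655 (median 598) (log2 difference -1.50, SE 0.088, adjusted p = 1.1e-06), and Lif, a cytokine of the interleukin 6 family, 772, 572 and 553 against 898 to 1097 (median 962) (log2 difference -0.58, SE 0.058, adjusted p = 3.3e-05). Ccl2 rose and Il1a fell, as given above.

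Signalling ligands, receptors and inhibitors were called more often than the 34.6% of all genes, but in both directions. In the TGF-beta, activin and BMP list 9 of 32 rose and 12 fell (65.6% called, 12 genes with the wider spread). Nog, which codes for the BMP trap noggin, read 111, 111 and 118 against 13.4 to 32.7 (median 21.1) (log2 difference 2.36, SE 0.23, adjusted p = 3.2e-05). Fstl3, an activin trap, went down, to 23.3, 32.2 and 25.6 from 71.4 to 132 (median 101) (log2 difference -1.89, SE 0.14, adjusted p = 5e-06). Inhba, the activin A subunit, differed by -0.66 (SE 0.061) and Bmp1, a procollagen protease, by -0.80 (SE 0.041). Of 25 Wnt genes 12 fell and 5 rose (68.0% called, 9 genes with the wider spread). Nkd2, an inhibitor of the pathway, read 114, 136 and 99.1 against 363 to 541 (median 434) (log2 difference -1.89, SE 0.15, adjusted p = 8.2e-06). The ligand gene Wnt5b read 319.6, 316 and 311 against 746 to 972 (median 808) (log2 difference -1.35, SE 0.087, adjusted p = 2e-06), and Porcn, which acylates Wnt ligands, differed by -1.07 (SE 0.10). Rnf43, a ligase that removes Wnt receptors, read 6.07, 6.04 and 7.80 against 35.6 to 61.0 (median 42.4) (log2 difference -2.73, SE 0.27, adjusted p = 2.9e-05).

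In the ErbB list 4 of 15 rose and 6 fell (66.7% called beside 34.6% of all genes, 5 genes with the wider spread). The neuregulin gene Nrg1, a ligand of ErbB3 and ErbB4, read 492, 550.5 and 447 against 185 to 303 (median 243) (log2 difference 1.04, SE 0.088, adjusted p = 1.2e-05), while Epgn, a ligand of the EGF receptor, read 209, 169 and 217 against 342 to 518 (median 432) (log2 difference -1.12, SE 0.11, adjusted p = 2.8e-05). Egfr itself read 1427, 1369.6 and 1334 against 1282 to 1648 (median 1447) and did not pass (log2 difference -0.047, adjusted p = 0.668). Its feedback inhibitors Errfi1 and Lrig1 fell by -0.61 (SE 0.078) and -0.44 (SE 0.044) on the log2 scale. Semaphorins, plexins and neuropilins, guidance ligands and their receptors, fell in 13 and rose in 6 of 26. Of these 73.1% were called, beside 34.6% of all genes, and 7 with the wider spread. Sema7a read 49.6, 62.4 and 50.1 against 242 to 350.1 (median 281) (log2 difference -2.39, SE 0.13, adjusted p = 9.7e-07) and Sema5a 19.2, 18.1 and 11.1 against 85.8 to 157 (median 110.4) (log2 difference -2.82, SE 0.21, adjusted p = 5.6e-06). Sema3f differed by -0.69 (SE 0.054).

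Cholesterol and fatty acid synthesis had the largest share called of the lists with more than 3 tested members, 93.8%: 30 of 32 tested enzymes and regulators fell and 0 rose, with a median log2 difference of -0.59. The share over all genes was 34.6%, and the wider spread gave 20 calls in this list. Dhcr7, a sterol reductase of cholesterol synthesis, read 1654, 1575 and 1473 against 2022 to 2559.7 (median 2281) (log2 difference -0.51, SE 0.046, adjusted p = 1.7e-05). Srebf1, the transcription factor that drives lipid synthesis, read 1164, 1115 and 1203 against 1742 to 2373 (median 1961) (log2 difference -0.75, SE 0.066, adjusted p = 1.4e-05). Fads2, the delta-6 desaturase, fell furthest, to 98.1, 82.5 and 91.3 from 319 to 636 (median 403) (log2 difference -2.25, SE 0.14, adjusted p = 1.8e-06). Sqle, squalene epoxidase (1849, 1806 and 1922 against 1518 to 2174 (median 1880.4), adjusted p = 0.867), and Ebp, a sterol isomerase (1011, 934 and 916 against 881 to 1032 (median 973), adjusted p = 0.989), were the 2 that did not pass. In the lung lines 28 of these 30 were called in the same direction and 1 in the opposite one. Between the parental lines, 1 against 1 and with no test, the median of the list was 0.097.

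Hmgcs1, which makes the precursor of mevalonate, was the 1 member of the 22 with a promoter window that holds TCACNCCAC or GTGGNGTGA, a form of the sterol regulatory element, found in 1.44% of all genes with a window. It is named for that reason, after its values were seen, and read 1061, 1229 and 1268 against 1663 to 2473 (median 2118) (log2 difference -0.78, SE 0.083, adjusted p = 5.1e-05). The window is chr13:119690101-119690400 on the plus strand of GRCm38.p6 (RefSeq), with the match in capitals.
Hmgcs1: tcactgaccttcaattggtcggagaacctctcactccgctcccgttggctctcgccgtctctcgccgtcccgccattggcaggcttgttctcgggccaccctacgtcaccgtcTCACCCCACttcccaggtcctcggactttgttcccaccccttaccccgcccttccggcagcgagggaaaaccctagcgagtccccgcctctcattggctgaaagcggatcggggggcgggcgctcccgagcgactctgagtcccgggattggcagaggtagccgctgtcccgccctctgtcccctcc

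Glycolysis and hypoxia genes were split, 7 of 33 higher and 9 lower (48.5% called beside 34.6% of all genes, 6 genes with the wider spread). Car9, the hypoxia-induced carbonic anhydrase of the cell surface, read 26.3, 28.2 and 26.7 against 107 to 184 (median 142) (log2 difference -2.40, SE 0.23, adjusted p = 2.3e-05). Epas1, which codes for HIF-2 alpha, read 29.3, 36.2 and 30.1 against 69.4 to 102 (median 80.6) (log2 difference -1.34, SE 0.15, adjusted p = 6.7e-05), and Hk1, a hexokinase, differed by -0.51 (SE 0.061). Gapdh was called higher (log2 difference 0.37, SE 0.051), but its counts moved with the run, at 702, 1226 and 1300 in YEJG-FP, where the first value is the run B library, and 425 to 1102 (median 506) in YEJH. Of 39 glutathione genes and targets of NRF2, the regulator of antioxidant defence, 13 rose and 3 fell. That is 41.0%, near the 34.6% of all genes, and run A alone called 10 members and the wider spread 5. Nqo1, a quinone reductase and classical NRF2 target, read 1370.3, 1377 and 1629.8 against 313 to 761 (median 563) (log2 difference 1.33, SE 0.19, adjusted p = 0.00031), beside 7.34 and 5.69 in parental YEJG and YEJH, and its call was lost with the wider spread. Txn1, the thioredoxin gene, read 10350, 10386 and 10679 against 6244 to 7029 (median 6650.2) (log2 difference 0.67, SE 0.038, adjusted p = 9.9e-07). Gstm1, a glutathione transferase with close paralogues, differed by 1.74 (SE 0.20) and Sod2, the mitochondrial superoxide dismutase, by 0.35 (SE 0.048). Prdx1 did not pass (log2 difference -0.053, SE 0.038, adjusted p = 0.318).

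Pyrimidine genes include uridine phosphorylase 1, which splits uridine into uracil and ribose-1-phosphate and is the enzyme at the centre of the study. Upp1 read 282, 311 and 324 normalised counts in YEJG-FP and 418 to 521 (median 475) in the YEJH libraries, which did not overlap (log2 difference -0.63, SE 0.071, adjusted p = 7.8e-05). With the wider spread this call was lost. Upp2, its paralogue, was close to the limit of detection at 8.09, 4.03 and 8.91 and 6.26 to 17.3 (median 11.4) (adjusted p = 0.077). Over the list, 12 of 30 rose and 5 fell, with a median log2 difference of 0.02. Of these 56.7% were called, beside 34.6% of all genes, and 10 with the wider spread. Uck2, a uridine and cytidine kinase, read 6496, 6288 and 6142 against 3722 to 4505 (median 4256) (log2 difference 0.63, SE 0.044, adjusted p = 3.5e-06), and Umps, the last enzyme of UMP synthesis, 3002, 2821 and 2802 against 2074 to 2305 (median 2178) (log2 difference 0.42, SE 0.04, adjusted p = 2.4e-05). Slc29a1, a nucleoside transporter, rose by a log2 difference of 0.42 (SE 0.046), and Nt5c, a nucleotidase, differed by -0.49 (SE 0.043).

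Proliferation genes were called at close to the background share, 36.7% beside 34.6%, with 6 of 30 higher and 5 lower, and 2 called with the wider spread. The differences were small: Mki67 differed by -0.30 (SE 0.053), the replication helicase gene Mcm2 by 0.20 (SE 0.037), Birc5 (survivin) by -0.21 (SE 0.04), and Ccna2 (cyclin A2) by 0.056 (SE 0.05, adjusted p = 0.425), which did not pass. Of 30 cell cycle brakes and p53 targets 5 rose and 7 fell (40.0%, near the 34.6% of all genes), and the wider spread gave 4 calls. Cdkn1a, which codes for the inhibitor p21, read 517, 468 and 483 against 684 to 946 (median 785) (log2 difference -0.66, SE 0.087, adjusted p = 0.0002), Cdkn2d 137, 149.9 and 166 against 206 to 277 (median 253) (log2 difference -0.69, SE 0.12, adjusted p = 0.0013), and Plk2, a p53-induced kinase, 11622, 10526 and 10836 against 7568 to 8876 (median 8231) (log2 difference 0.43, SE 0.036, adjusted p = 1.1e-05).

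Imprinted genes, normally read from 1 parental copy, fell in 8 and rose in 1 of 14 tested, beside 16.9% and 17.7% of all genes, and the wider spread gave 2 calls. Sgce, a sarcoglycan gene, had 0 reads in YEJG-FP and 47 to 166 in each YEJH fat-pad line, at least 26.7-fold lower with a floor of 3 reads over the 3 YEJG-FP libraries. Peg10, its neighbour on chromosome 6 in the same imprinted domain (named after its values were seen), had 1 read in YEJG-FP and 35 to 145 in each YEJH line. Across the 5 YEJH lines the highest and the lowest counts of both genes fell in YEJH-FP2 and YEJH-FP5. Parental lines were also low, with 1 and 8 reads of Sgce and 0 and 5 of Peg10 in YEJG and YEJH. The YEJG lung lines held 14 and 148 reads of Sgce and 18 and 229 of Peg10, so YEJG-M2 was not low. Igf2r, the receptor that clears IGF2, read 2912, 3058 and 2795 against 4043 to 4925 (median 4497) (log2 difference -0.62, SE 0.08, adjusted p = 0.00018), Phlda2 differed by -0.63 (SE 0.11) and Mest by -1.05 (SE 0.22).

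Xist, the RNA that silences 1 X chromosome in female cells, read 357, 291 and 218 against 1842 to 3590 (median 2883) (log2 difference -3.19, SE 0.12, adjusted p = 4.8e-08), with 2159 in parental YEJG and 2947 in parental YEJH. The library preparation did not keep strand, so reads of its antisense partner cannot be told apart from its own. Its activators Ftx (186, 191 and 144 against 121 to 184 (median 166)) and Jpx (48.5, 49.3 and 40.1 against 41.3 to 75.9 (median 58.5)) did not pass, and the median log2 difference of 326 X-linked genes was 0.031. With the wider spread the Xist call was lost. Only 3 of 39 Hox genes were expressed enough to be tested, and since a gene can pass that filter through YEJG-FP alone, their direction is no result. Hoxa5 read 17.2, 12.1 and 10.0 against 0 to 3.13 (median 0) (log2 difference 4.28, SE 0.60, adjusted p = 0.00033); it overlaps antisense transcripts, which an unstranded library counts with it.

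The same contrast was made in the lung lines, which share no library with the fat-pad lines. Between 2 YEJG and 5 YEJH lung lines 5814 of 15892 genes (36.6%) were called. Of the 2801 genes higher in YEJG-FP that were also tested in lung, 1142 (40.8%) were called higher in the YEJG lung lines, which is 41.7% of the lung calls in that direction, and 106 (3.78%) were called lower. Of the 2691 genes lower in YEJG-FP, 1542 (57.3%) were called lower in lung, 50.2% of the lung calls in that direction, and 141 (5.24%) higher. The background shares in lung were 17.2% higher and 19.3% lower. Without YEJG-M1, 3363 genes were called in lung. The library name of YEJG-M1 repeat 1 carries YEJH-M1, while its title says YEJG-M1. The title was followed here, and without this library 5559 genes were called in lung. In the parental lines, 1 against 1 and with no test, 75.4% of the genes higher and 77.8% of those lower in YEJG-FP differed in the same direction. By more than 0.5 on the log2 scale, 10.7% and 27.7% did so. Lists were mixed: the parental median was 0.097 for cholesterol and fatty acid synthesis, -0.051 for epithelial identity and -0.68 for mesenchymal transition. It was -0.53 for class I antigen presentation and -1.35 for interferon-stimulated genes.

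Whether the difference between origins itself differed between fat-pad and lung lines was tested with an interaction term over the 13 derived lines. With YEJG-FP as the only YEJG fat-pad line, the term cannot tell a difference of site from a difference of this 1 line. It passed for 2567 of 17042 genes (15.1%), 8.28% with a higher and 6.78% with a lower value in fat pad than in lung. It passed for 1391 of the 5562 genes called in fat pad. The 8 genes with the smallest adjusted p of this term were Serpinb5, Pdlim1, Krt19, Zfp503, Dsp, Grn, Bace1 and Epha1. Pdlim1, an adaptor of actin stress fibres, read 202, 197 and 212 against 683 to 1075 (median 903) in fat-pad lines (log2 difference -2.14, SE 0.16, adjusted p = 4.8e-06), and it was higher in YEJG in the lung lines (log2 difference 1.03, adjusted p = 0.0003, interaction adjusted p = 1.2e-05). Zfp503 and Grn (progranulin) also turned, from -1.18 and -0.45 in fat pad to 0.46 and 0.48 in lung. Bace1, the beta-secretase, read 2985, 2886 and 3006 against 1395 to 1706 (median 1549.6) in fat pad (log2 difference 0.95, SE 0.051, adjusted p = 6.9e-07) and had a log2 difference of -0.33 in lung. Epha1, an ephrin receptor, differed by 0.48 in fat pad and -1.64 in lung. Serpinb5 (maspin), Krt19 and the desmosomal gene Dsp fell at both sites but less in fat pad, by -0.43, -1.24 and -0.27 beside -2.07, -3.58 and -1.97 in lung.

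For epithelial identity the median log2 difference was -1.96 in lung and -0.59 in fat pad, all 16 members were called lower in lung, and the interaction passed for 13, beside 15.1% of all genes. These were not all of 1 direction, since Cldn7 was lower in fat pad than in lung by -2.18 (adjusted p = 0.021) while Krt19 was higher by 2.32. The 11 epithelial members that fell in fat pad were all called lower in lung as well. For class I antigen presentation the lung median was 0.17 beside -0.49 in fat pad, and the interaction passed for 10 of 18 members, while 4 members were called in opposite directions at the 2 sites. For interferon-stimulated genes the lung median was -0.066 beside -0.81 in fat pad, with 7 of 32 called higher and 8 lower in lung. Of the 16 members called in fat pad, 8 were called in the same direction in lung and 2 in the opposite one. The interaction passed for 11 of 34 members. Cholesterol and fatty acid synthesis had an interaction in 6 of 32. For Qng1 and Tgm1, which rose in fat pad, the interaction passed (adjusted p = 0.00031 and 0.0016), with lung log2 differences of -0.36 and -0.96 that did not pass. Qng1 was at 4.91 and 6.84 normalised counts in parental YEJG and YEJH.

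**Figure D3:**
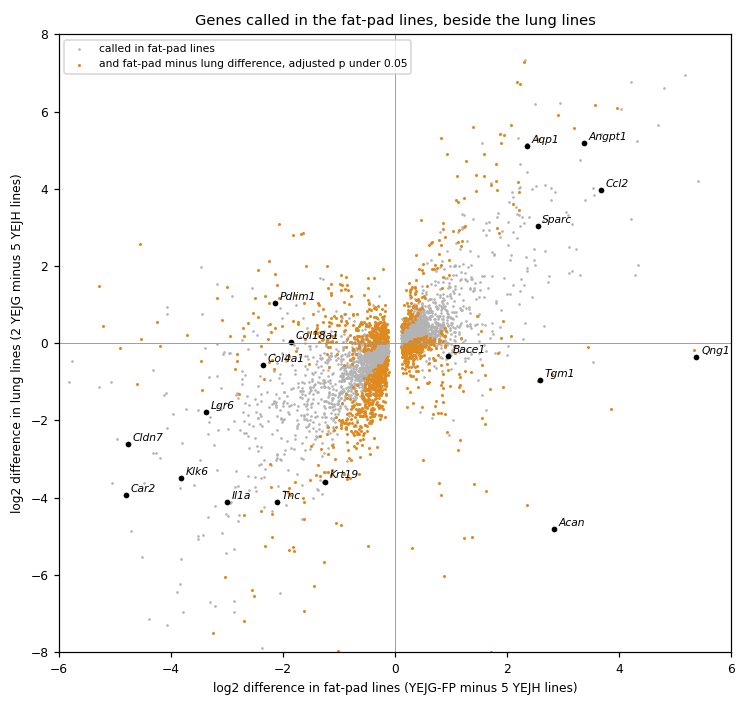
Log2 difference between YEJG and YEJH lines in fat pad (x axis) and in lung (y axis) for the 5492 genes called in fat pad and tested in lung. Of these 40 lie outside the axes. Orange marks the 1378 whose fat-pad minus lung difference passed the interaction test, in which YEJG-FP is the only YEJG fat-pad line. Pdlim1 (log2 difference -2.14 in fat pad, 1.03 in lung) and Bace1 (0.95 and -0.33) are among the points whose sign differs between sites.

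By chromosome, medians of the log2 difference were near 0, from -0.019 on chromosome 11 to 0.116 on chromosome 15, over genes of at least 50 normalised counts in either group. On chromosome 15 the line medians, taken against the mean of the YEJH lines, were 0.108 in YEJG-FP and -0.065 to 0.064 in the YEJH lines. Genes of a chromosome are not replicates and no test was made.

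**Figure D4:**
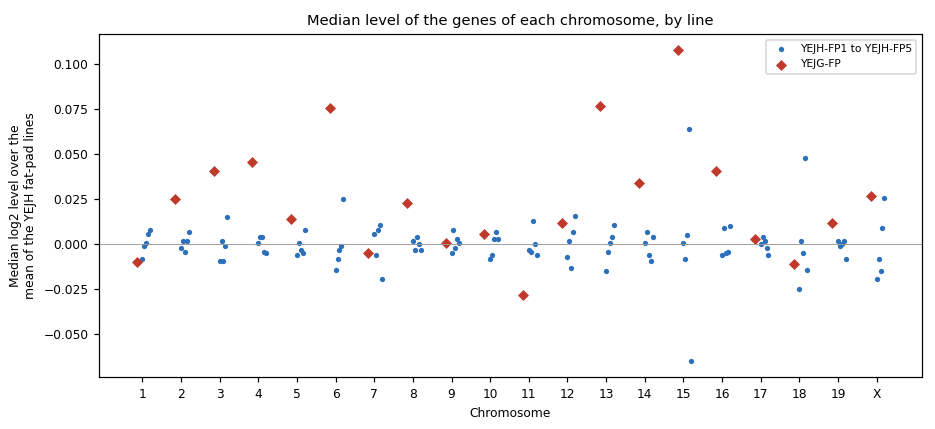
Median log2 level of the genes of each chromosome (x axis) relative to the mean of the 5 YEJH fat-pad lines (y axis); the red diamond is YEJG-FP and blue points are the YEJH lines. YEJG-FP reaches 0.108 on chromosome 15, where the YEJH lines also spread most, from -0.065 to 0.064.

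The chromosome medians hid 3 segments. In windows of 10 Mb with at least 10 genes, positions on GRCm39, 10 of 249 windows had a median log2 difference beyond 0.25 in size. They fell into 3 stretches. On chromosomes 4 and 15 these bridge windows with fewer than 10 genes, whose genes are counted in the segment. The other medians lay between -0.166 and 0.243. Window size and limit were chosen after the values were seen, and the segments were picked by the same differences that their medians and counts describe. Over all 10609 genes of at least 50 normalised counts, 2501 were called higher and 2243 lower. On chromosome 15 the first 70 Mb held 139 genes with a median of 0.513 (1.43-fold), 113 of them called higher and 6 lower, while the rest of the chromosome, 290 genes, had a median of -0.012. The YEJH fat-pad lines had medians of -0.049 to 0.067 there, the YEJG lung lines 0.309 and 0.195, the YEJH lung lines -0.106 to 0.282, and parental YEJG -0.021. Myc, the oncogene within this segment (named after its values were seen), read 1976, 1691 and 1868 against 1414 to 1568 (median 1519) (log2 difference 0.31, SE 0.04, adjusted p = 0.00019), a call lost with the wider spread. On chromosome 4 the stretch from 50 to 90 Mb held 77 genes with a median of 0.441 (1.36-fold), 55 called higher and 7 lower, beside 0.033 over the rest. Neither YEJG lung line showed it (0.006 and -0.039), the YEJH fat-pad lines ran from -0.029 to 0.016, and among the YEJH lung lines YEJH-M1 was at -0.337, close to its -0.311 over the whole of chromosome 4. On chromosome 11 the windows from 110 Mb on held 143 genes with a median of -0.355 (1.28-fold lower), 111 called lower and 1 higher. There the YEJG lung lines were lower still, at -1.03 and -0.889, and parental YEJG was at -0.154, against -0.028 to 0.025 in the YEJH fat-pad lines.

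**Figure D5:**
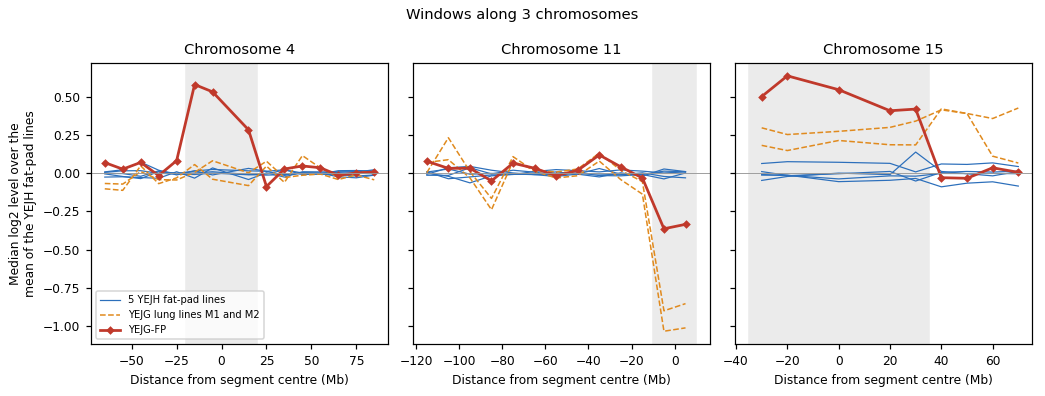
Median log2 level per 10-Mb window relative to the mean of the YEJH fat-pad lines (y axis) by distance from the centre of the segment (x axis, Mb) on chromosomes 4, 11 and 15; red is YEJG-FP, blue the 5 YEJH lines, dashed orange YEJG-M1 and YEJG-M2, and grey the segment. The step on chromosome 4 appears in YEJG-FP alone among the lines drawn, and that on chromosome 11 is deeper in both YEJG lung lines (-1.03 and -0.889) than in YEJG-FP (-0.364).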

How the data were processed

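Gene expression of 45 libraries of PyMT+ mouse mammary cancer lines was measured by polyA RNA sequencing. The authors deposited read counts per gene in 1 table, and the submitters' processing notes name FastQC, HISAT2, SAMtools 1.2 and HTSeq. They name the build GRCh38 although the gene identifiers are mouse ones, so gene positions were taken from GENCODE M39. Rows that name no gene (reads outside genes, ambiguous, of low quality, not aligned or aligned to several places) were left out of library sizes and tests. They held 31.6% to 36% of the reads of the 18 fat-pad libraries.

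The 3 technical repeats of each line were summed, so p-values rest on the spread between YEJH lines, which was little wider than that of repeats. Sums were fitted with edgeR 4.0.16 (R 4.3.3; TMM, filterByExpr, glmQLFit and glmQLFTest, 4 residual degrees of freedom), with each gene's run coefficient, from a fit of line and run over all 45 libraries, as an offset. P-values were adjusted by Benjamini-Hochberg over all genes tested, with a threshold of 0.05, and SE is the log2 difference divided by the square root of F. The fit was also run on simulated data, in which lines vary as in the fat-pad fit, and its outcome is not reported here. Members and gene lists were chosen with earlier results of these data known. The text names the 12 highest and 12 lowest differences among called protein-coding genes with a mean of at least 200 normalised counts and no overlap of libraries, up to 4 called and 2 uncalled members a list, Upp1 and Upp2, up to 5 genes near 0 on each side, and the 8 smallest adjusted p of the interaction, and some of these are not reported here. Psmb8, Nlrc5, Hmgcs1, Peg10 and Myc were added after their values were seen. Alternatives were other scalings, DESeq2 1.42.0, limma 3.58.1, no filter, no run term, single runs, and lines or libraries left out. Promoter windows are from RefSeq.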

Additional observations from a re-analysis of the deposited data

Results flagged for a closer look

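The difference between origins differed between fat-pad and lung lines for 63 of the 140 genes named, by the interaction term over 13 lines at an adjusted p under 0.05 (edgeR), beside 15.1% of all genes tested. The count is raised by selection, since 123 of the 140 were called in fat pad, and the term uses the same YEJG-FP libraries. Besides, 8 of the genes were chosen for the smallest p of this term, and Psmb8 and Nlrc5 after their values were seen. With YEJG-FP as the only YEJG fat-pad line, the term cannot tell site and line apart. Values are the log2 difference in fat pad minus that in lung, so a negative value means that YEJG lay lower, relative to YEJH, in fat pad than in lung. Among epithelial and junction genes the term was Cldn7 -2.18, Krt19 2.32, Epcam 1.08, Cdh1 1.64, Krt7 1.81, Grhl2 1.79, Pkp3 0.71, Jup 0.74, Pkp1 0.90, Dsp 1.68, Serpinb5 1.61 and Krt14 1.39. Mesenchymal, luminal and matrix genes had S100a4 -1.57, Zeb2 -1.74, Xbp1 -0.65, Gata3 -0.62, Col4a1 -1.83, Col4a2 -1.52, Col18a1 -1.91, Tnc 1.99 and Klk8 0.87. In the immune lists it was B2m -0.54, Psmb8 -4.53, Psmb10 -0.87, Nlrc5 -4.46, H2-Q4 -0.46, Calr -0.72, Oasl1 2.08, Irf1 -0.71, Csf3 1.15, Lif 1.15 and Ulbp1 1.74. Receptors, ligands and their inhibitors had Egfr 1.33, Fstl3 -1.57, Inhba 1.12, Nkd2 3.44, Lgr6 -1.61, Angpt1 -1.84, Sema7a -2.34 and Epha1 2.10. Metabolic genes had Fads2 -1.78, Srebf1 -0.41, Hk1 -0.37, Txn1 0.64, Uck2 0.47, Nt5c 0.80, Slc29a1 -0.76 and Qng1 5.71. For cell cycle and imprinted genes and Ftx it was Birc5 0.74, Plk2 0.71, Cdkn2d -1.09, Phlda2 1.12, Mest 7.50 and Ftx 0.39. The other genes had Tgm1 3.52, Aqp1 -2.77, Pdlim1 -3.20, Zfp503 -1.66, Grn -0.95 and Bace1 1.26. Near-zero genes had Wipf1 -5.66, Parp11 -4.82 and Tgif2 10.59, which depend on the prior count and give no bound.

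Of the 140 genes named, 4 had 1 of the 5 YEJH fat-pad line means far from the others by Dixon's gap. Chance gives this in about 1 of 20 groups, and 4 of 140 is below that rate. Col6a1 stood at 71.7 normalised counts in YEJH-FP2 and 47.1 to 51.5 in the other YEJH lines. Csf3 was at 539 in YEJH-FP3 and 602 to 620 in the others. Hmgcs1 was at 2312 in YEJH-FP3 and 1946 to 2025 in the others. Scn3a had 0.328 in YEJH-FP5, from 1 read, and 0 in the others.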

How the results depend on the processing

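Leaving out 1 line or library at a time gave 5127 to 5940 called genes in fat pad and 3363 to 5988 in lung, the lowest without YEJG-M1. Without YEJG-M1 repeat 1, whose library name and title disagree on its line, the interaction passed for 2337 genes. In fat pad DESeq2 called 4679 genes, the fit with no run term 5012 and the fit with no filter 5411. Run A alone gave 3340 (1365 higher, 1975 lower) and run B alone 3795 (1776 and 2019), and for the interaction they gave 1702 and 1589. Single runs hold fewer libraries and test fewer genes. The segment medians in runs A and B were 0.473 and 0.401 on chromosome 4 and -0.419 and -0.313 on chromosome 11.

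The spread of all 13 derived lines, chosen after seeing the data, changed most. It gave 2720 genes (1434 higher, 1286 lower) and 167 list members called (42 higher, 125 lower) in place of 339. Counts per list went from 30 to 20 in cholesterol and fatty acid synthesis, 16 to 12 for interferon-stimulated genes and 11 to 7 for epithelial identity, and they fell by more than 1.5 times in every other list but Hox genes. Without YEJH-FP5 the brakes had 19 calls. Counts that fell by more than 1.5 times in run A were 11 for cytokines, 10 for NRF2 targets, 2 for proliferation and 6 for brakes, and in run B 4 for luminal genes, 1 for basal genes, 8 for class I, 10 for glycolysis, 11 for pyrimidine enzymes and 1 for Hox genes.

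Of 123 called genes named in the text, 96 kept their call under every alternative that fitted them and none changed sign. Scn3a, Rspo3 and Hoxa5 could not be fitted in either limma fit, nor Rspo3 in run B. With the spread of 13 lines 26 lost it. They included Upp1, Xist, Cdh1, Acan, Nqo1, Ngfr, Myc, Megf6, Cers6, Prrx1, S100a4, Jag2 and Sox9. The others were Adam12, Wnt5b, Epgn, Errfi1, Slc29a1, Mcm2, Birc5, Igf2r, Mest, Fam83f, B4galt6, Dsp and Peg10. Run A alone lost Mki67 and Mcm2, and run B alone S100a4 and Sox9. Of the 17 named genes that did not pass, Krt7, Krt14 and Calr passed under at least 1 alternative. The uncalled Sqle and Ebp lay at 0 within their error: in run B alone they were at -0.050 and 0.098, Ebp was at 0.003 with library totals only, and leaving out 1 line or library took Sqle from -0.016 to 0.06 and Ebp from -0.049 to 0.027 (Sqle -0.001 and -0.012, Ebp 0.009, 0.004 and 0.018 in the others that changed sign).

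Same-numbered repeats of different lines correlated by -0.047 to 0.345 (mean 0.15, over 0.1 in 11 of 15 pairs), and those with different numbers by -0.279 to 0.162 (mean -0.075, over 0.1 in 3 of 30). Not every pair was over 0.1, so the numbers were not taken to pair the samples, although same-numbered repeats were on average more alike. With the replicate block in limma 5905 genes were called in fat pad, 6255 in lung and 3538 for the interaction, beside 5923 in fat pad without it. The cause of these shifts was not tested.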
